A study of Bombus terrestris with 8 samples.

Results

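Bte-miR-14 and Bte-miR-278 are conserved insect miRNAs, and both arms of each hairpin were listed among the miRNAs of Bombus terrestris larvae. They were taken by name, which gave 4 arms of 2 hairpins out of 123 listed miRNAs from 112 hairpins. The series held 8 small RNA libraries, with 4 labelled as late-instar and 4 as early-instar queen-destined larvae. All larvae were diploid females from colonies whose queen had been removed. Late-instar larvae were in the fourth instar, when caste is fixed, and early-instar larvae were in the first and second instars, when either caste is still possible. Each library was made from whole bodies pooled within a colony, so the tissue of origin of a miRNA was not resolved. The comparison set late-instar libraries 1, 3 and 4 (LQ1, LQ3 and LQ4) against early-instar libraries 1, 3 and 4 (EQ1, EQ3 and EQ4), and same-numbered libraries came from the same colony. The study left out both libraries numbered 2 for a poor normalization. Of these EQ2 is given beside the others, and the late library 2 was not analysed here.

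A miRNA hairpin is cut by Dicer into a duplex of a 5′ arm (5p) and a 3′ arm (3p). Usually 1 arm is loaded into an Argonaute protein and guides it to messenger RNAs through the seed, bases 2 to 8 of the miRNA. In Drosophila, miR-14 limits fat storage, suppresses cell death, represses the ecdysone receptor and acts in the insulin-producing cells of the brain on the transcription factor gene sugarbabe. In Drosophila, miR-278 is needed for normal insulin responsiveness and energy balance, and its known target there is the growth regulator gene expanded. The 3p arm is the arm generally studied in Drosophila for both miRNAs.

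The sequences of the 4 arms are shown because the seed separates them into different families. They are written 5′ to 3′ as DNA, with the seed in capitals.
Bte-miR-14-5p: gGGGGTGAgaaactggcttggct
Bte-miR-14-3p: tCAGTCTTtttctctctcctat
Bte-miR-278-5p: cCGGATGAggtctccatcgacc
Bte-miR-278-3p: tCGGTGGGactttcgtccgttt
No seed was shared among the 4 arms, and 0 other listed sequences carried any of the 4 seeds. Bte-miR-14-5p had 23 bases and the other arms had 22. Both 3p arms began with T, while Bte-miR-14-5p began with G and Bte-miR-278-5p with C. The share of G and C was 36.4% in Bte-miR-14-3p, the lowest of the 4, against 60.9% in Bte-miR-14-5p, 54.5% in Bte-miR-278-3p and 63.6% in Bte-miR-278-5p.

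The hairpins show how the arms pair. On the coordinates of the deposited table (B. terrestris genome v.1.0), the miR-14 hairpin lay on the plus strand of Group7.1 from 745314 to 745388, and the miR-278 hairpin on the plus strand of Group9.1 from 1925319 to 1925389. Whether these positions fall within a gene was not analysed here. The precursors are given with both arms in capitals.
Bte-miR-14 hairpin: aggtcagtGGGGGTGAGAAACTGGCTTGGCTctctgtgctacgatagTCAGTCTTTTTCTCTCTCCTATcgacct
Bte-miR-278 hairpin: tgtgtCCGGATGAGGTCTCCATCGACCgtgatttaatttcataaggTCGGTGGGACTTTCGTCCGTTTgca
Folded with RNAfold, each formed 28 base pairs at a minimum free energy of -34.3 kcal/mol. The arms of miR-14 faced each other with 17 pairs and those of miR-278 with 18, and the arms were separated by 16 bases in miR-14 and 19 bases in miR-278. No other listed miRNA lay within 50 kb of either hairpin. The nearest on the same scaffold was MC1103, 680015 bases from miR-14, and MCD1274, 1036154 bases from miR-278.

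The arms differed in how they stood between the instars. Both arms of miR-14 were lower in late-instar larvae, at 0.548 times the early level for Bte-miR-14-5p and 0.539 times for Bte-miR-14-3p. Within miR-278 the arms parted: Bte-miR-278-3p was 2.31-fold higher in late-instar larvae, whereas Bte-miR-278-5p did not differ beyond its error. By limma with an adjusted p under 0.05 over all listed miRNAs tested, 3 of the 4 arms were called, against a background of 43.0% of the 100 listed miRNAs tested, with 16.0% higher and 27.0% lower in late-instar larvae. The late and early ranges did not overlap for the same 3 arms, against 48.8% of the 123 listed miRNAs. The median difference over the miRNAs tested was -0.15 on the log2 scale, and each arm is therefore also given relative to it. Values are normalized reads as deposited, and log2 differences are of normalized reads plus 20, which understates changes of low miRNAs.

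Bte-miR-14-5p, the more abundant arm, had 6398, 4941 and 5143 normalized reads in LQ1, LQ3 and LQ4, against 8789, 11622 and 9694 in EQ1, EQ3 and EQ4. All 3 late libraries lay below all 3 early ones, although EQ2, at 4034, lay below the late libraries. The means were 5494 ± 789 in late-instar and 10035 ± 1447 in early-instar larvae (SD, n = 3 each). The log2 difference was -0.87 (SE 0.25, 95% interval -1.38 to -0.36, limma adjusted p = 0.006), or -0.72 relative to the median miRNA. It was negative in all 3 colonies, at -0.46, -1.23 and -0.91 in colonies 1, 3 and 4. The exact two-sided permutation test gave p = 0.1, the smallest that 3 libraries against 3 allow. With EQ2 included the difference was -0.54 (limma adjusted p = 0.142), and without EQ3 it was -0.76 (limma adjusted p = 0.057), so the call was lost in both cases. Over 16 alternatives the limma adjusted p ran from 0.00461 to 0.142.

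Bte-miR-14-3p had 1655, 3114 and 2836 normalized reads in LQ1, LQ3 and LQ4, against 3956, 4501 and 5298 in EQ1, EQ3 and EQ4. The groups did not overlap, with LQ1 the lowest library of all and EQ2, at 2720, among the late values. The means were 2535 ± 775 in late-instar and 4585 ± 675 in early-instar larvae (SD, n = 3 each). The log2 difference was -0.89 (SE 0.27, 95% interval -1.45 to -0.33, limma adjusted p = 0.00935), or -0.74 relative to the median miRNA. The colony differences were -1.25, -0.53 and -0.90 in colonies 1, 3 and 4, so that the colony with the smallest change of the 5p arm had the largest of the 3p arm. Without LQ1 the difference was -0.61 (limma adjusted p = 0.0656), and over 16 alternatives the limma adjusted p ran from 0.00431 to 0.0656.

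Bte-miR-278-3p, the scarcest of the 4 arms, had 601, 942 and 721 normalized reads in LQ1, LQ3 and LQ4, against 294, 278 and 366 in EQ1, EQ3 and EQ4. Every late library lay above every early one, EQ2 included at 207. The means were 755 ± 173 in late-instar and 313 ± 46.9 in early-instar larvae (SD, n = 3 each). The log2 difference was 1.21 (SE 0.25, 95% interval 0.68 to 1.73, limma adjusted p = 0.000506), or 1.36 relative to the median miRNA, and Bte-miR-278-3p ranked 7 of 97 distinct sequences from the most raised. The colonies gave 0.98, 1.69 and 0.94. This call was kept under all 16 alternatives, with limma adjusted p between 3.15e-05 and 0.0103.

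Bte-miR-278-5p had 1122, 1001 and 892 normalized reads in LQ1, LQ3 and LQ4, against 1148, 1082 and 1055 in EQ1, EQ3 and EQ4. These ranges overlapped, and EQ2 had 832. The means were 1005 ± 115 in late-instar and 1095 ± 47.8 in early-instar larvae (SD, n = 3 each). The log2 difference was -0.13 (SE 0.24, 95% interval -0.62 to 0.37, limma adjusted p = 0.7), or 0.02 relative to the median miRNA. The sign turned when each library was scaled to its own total, to 0.03, or by median ratios, to 0.11, and in neither case did it pass the threshold.

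**Figure D1:**
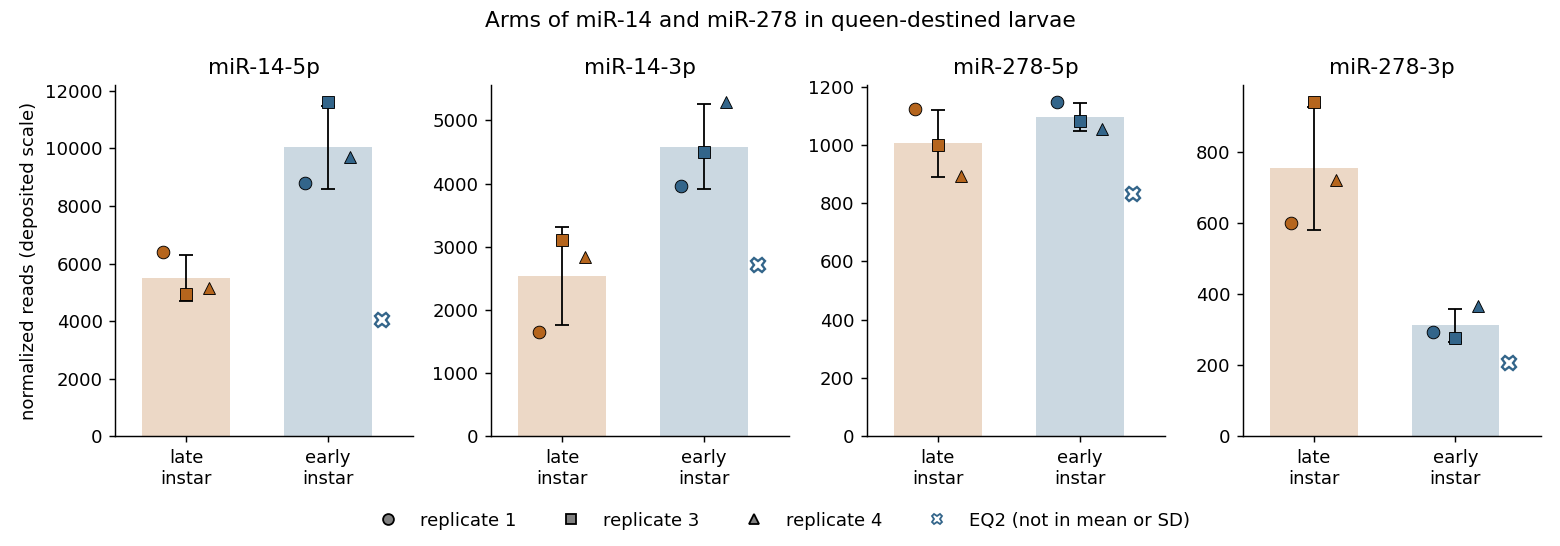
Normalized reads (vertical axis, separate scale for each arm, starting at 0) in late-instar and early-instar libraries; bars are means, error bars are SD over 3 libraries, point shapes give the replicate and the open cross is EQ2, left out of mean and SD. The bars for both miR-14 arms are lower in late-instar larvae, those for miR-278-3p are higher, and the miR-278-5p points overlap.

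The order of the arms within a library is a comparison of sequencing yields and not of molecule numbers, since ligation differs between sequences. Among 111 distinct sequences, Bte-miR-14-5p ranked 6 to 7 from the most abundant in late-instar and 5 to 6 in early-instar libraries, and Bte-miR-14-3p ranked 11 to 15 in late-instar and 9 to 13 in early-instar libraries. Bte-miR-278-5p ranked 19 to 25 in late-instar and 18 to 22 in early-instar libraries, while Bte-miR-278-3p stood at 26 to 29 in late-instar and 34 to 41 in early-instar libraries. The order miR-14-5p, miR-14-3p, miR-278-5p, miR-278-3p held in each library, but the lower neighbours drew together in late-instar larvae. Of all reads of distinct miRNAs, Bte-miR-14-5p took 2.11 to 3.69% in late-instar and 3.9 to 5.03% in early-instar libraries. Bte-miR-278-3p took 0.347 to 0.403% in late-instar and 0.12 to 0.166% in early-instar libraries. The early-instar ranks, shares and variation in this paragraph are of EQ1, EQ3 and EQ4. In EQ2 Bte-miR-14-5p ranked 9, below its late-instar ranks, and its share of 2.87% lay within the late-instar range. Bte-miR-278-3p took 0.147% in EQ2, within its early-instar range. The coefficient of variation was largest for Bte-miR-14-3p in late-instar libraries, at 30.6% (14.7% in early-instar libraries), and smallest for Bte-miR-278-5p in early-instar libraries, at 4.37% (11.4% in late-instar libraries).

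The ratio of the 2 arms of a hairpin within a library does not depend on the scale of that library. In both hairpins the 5p arm exceeded the 3p arm in 7 of 7 libraries, EQ2 included. For miR-278 the ratio of 5p to 3p was 1.87, 1.06 and 1.24 in LQ1, LQ3 and LQ4, against 3.89, 3.88 and 2.88 in EQ1, EQ3 and EQ4, and 4 in EQ2. The late and early libraries did not overlap, and in LQ3 the arms were nearly equal. On the log2 scale, with 1 added to each arm, the ratio averaged 0.43 ± 0.42 in late-instar and 1.81 ± 0.25 in early-instar larvae (SD, n = 3 each). The difference was -1.38 (0.383-fold), with -1.06, -1.87 and -1.22 in colonies 1, 3 and 4. The exact two-sided permutation test gave p = 0.1, the smallest it allows, and 0.15 after Benjamini-Hochberg adjustment over the 3 ratios compared.

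For miR-14 the ratio of 5p to 3p was 3.86, 1.59 and 1.81 in LQ1, LQ3 and LQ4, against 2.22, 2.58 and 1.83 in EQ1, EQ3 and EQ4, and 1.48 in EQ2. The highest and the lowest of the 6 libraries compared were both late-instar. The log2 ratio averaged 1.16 ± 0.69 in late-instar and 1.13 ± 0.25 in early-instar larvae (SD, n = 3 each), a difference of 0.03 (exact two-sided permutation p = 1). The colonies gave 0.80, -0.70 and -0.01, and leaving out LQ1 gave -0.37.

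**Figure D2:**
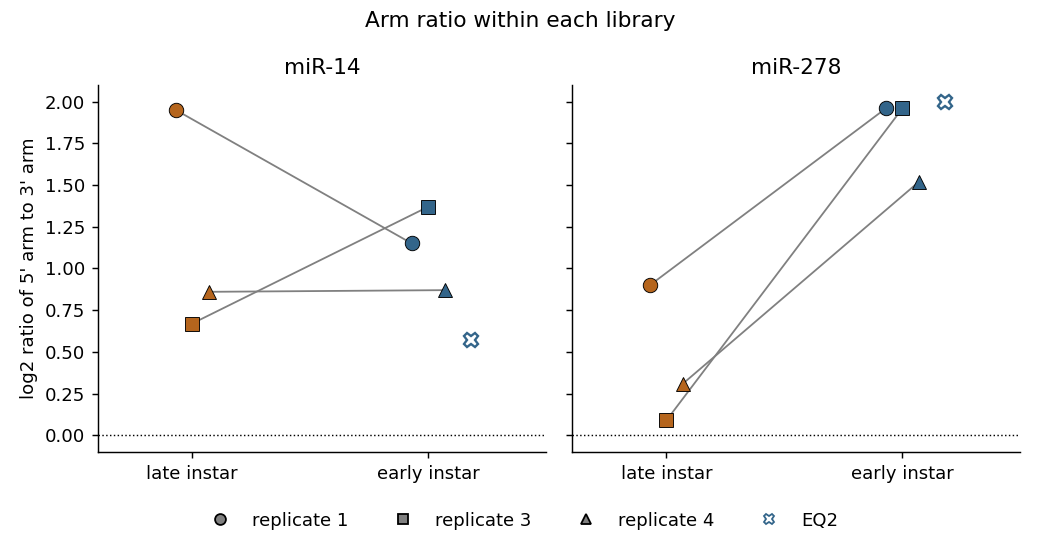
log2 ratio of the 5p arm to the 3p arm (vertical axis) in each late-instar and early-instar library for miR-14 and miR-278; lines join libraries of the same colony, point shapes give the replicate and the open cross is EQ2. All 3 lines for miR-278 are lower at the late-instar end, with differences of -1.06, -1.87 and -1.22, while the lines for miR-14 cross.

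The same ratio was fitted by limma over the 11 hairpins listed with both arms, a fit added after the values were seen. There 4 of 11 hairpins (36.4%) were called, miR-278 among them (SE 0.40, 95% interval -2.24 to -0.52, limma adjusted p = 0.0227). With the colony as a replicate block limma called 0 of the 11 hairpins. The 4 with an unadjusted limma p under 0.05 were miR-281, miR-125, miR-9a and miR-278. Of these miR-9a had not been called without the block. For miR-278 the limma adjusted p with the block was 0.0528. Over all alternatives its p ran from 0.00379 to 0.25, which come from unlike tests. The lowest was a limma adjusted p over the 8 hairpins with both arms at 10 or more. The highest came from an exact sign-flip test of the 3 colony differences, where 0.25 is the smallest p possible. The other called hairpins were miR-281 at -1.18 (limma adjusted p = 0.0329), miR-125 at -2.11 (0.0227) and miR-6001 at 1.32 (0.0485), and an arm of miR-125 and of miR-6001 was under 10 normalized reads in some library. With the block their adjusted p was 0.0528 for miR-281, 0.136 for miR-125 and 0.17 for miR-6001 by limma, and with EQ2 included limma called 3 of 11, miR-125 no longer among them (0.135). Among the 8 hairpins with both arms at 10 or more, miR-278 and miR-281 were called. The interval for miR-14 ran from -0.91 to 0.97.

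**Figure D3:**
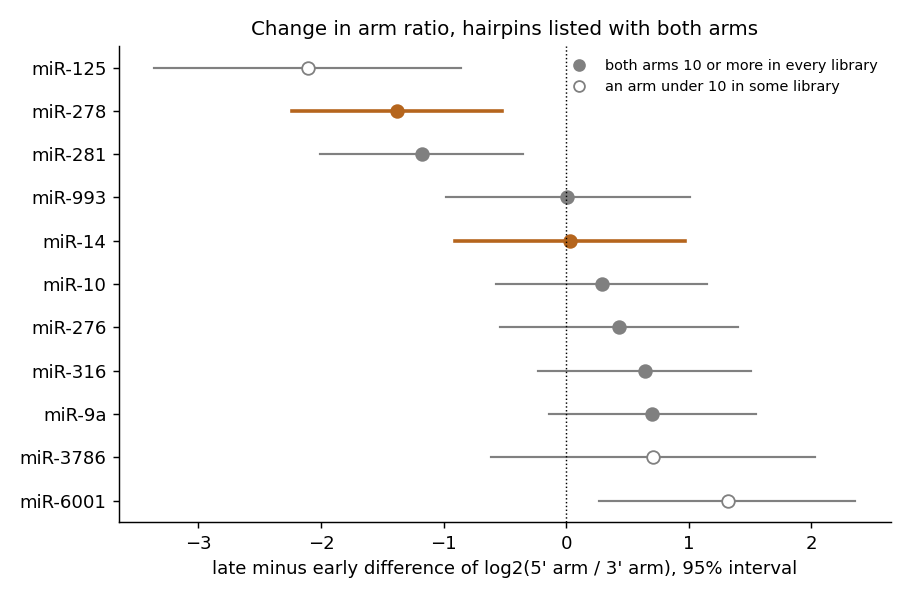
Late minus early difference of the log2 ratio of 5p to 3p arm (horizontal axis) for the 11 hairpins listed with both arms; points are limma estimates, lines are 95% intervals, miR-14 and miR-278 are in brown and open points have an arm under 10 normalized reads in some library. miR-278 lies at -1.38 with an interval below 0, and miR-14 lies at 0.03.

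The 2 hairpins were also compared with each other through their more abundant arms. The ratio of Bte-miR-14-5p to Bte-miR-278-5p was 5.7, 4.93 and 5.76 in LQ1, LQ3 and LQ4, against 7.65, 10.7 and 9.18 in EQ1, EQ3 and EQ4, and 4.84 in EQ2. All 3 late values lay below the 3 early ones, with EQ2 below them all. The log2 ratio averaged 2.45 ± 0.13 in late-instar and 3.19 ± 0.24 in early-instar larvae (SD, n = 3 each). The difference was -0.74 (exact two-sided permutation p = 0.1, adjusted over the 3 ratios 0.15), with -0.42, -1.12 and -0.67 in colonies 1, 3 and 4. With EQ2 included it was -0.51 (exact two-sided permutation p = 0.229). Like the arm ratios, this ratio does not depend on the scale of a library.

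Other miRNAs tied in insects to metabolism, growth or developmental timing were described beside miR-14 and miR-278. Of 11 such miRNAs, miR-305 was not analysed here, and the other 10 were listed with 12 sequences, of which 11 were tested. By limma 6 of the 11 were called, 4 higher and 2 lower in late-instar larvae, against 43.0% of the 100 listed miRNAs tested, and the list's median log2 difference was 0.26 against -0.15 over all. The list was chosen with earlier results of these libraries known, so its count is a description. Higher were miR-8, which promotes insulin-dependent growth through the Drosophila fat body, at 0.97 (limma adjusted p = 0.00241) and miR-275, needed in mosquitoes for blood digestion and egg development, at 1.75 (1.21e-05). Also higher were let-7, at 1.13 (0.00122), and miR-100, at 1.95 (1.86e-06), which are made from 1 ecdysone-timed locus in Drosophila. The other miRNA of that locus, miR-125, was not called, with miR-125-5p at 0.26 (limma adjusted p = 0.496) and miR-125-3p not tested. The study itself found miR-275 higher in late instars by sequencing and chose it for Northern blots on larvae of other colonies. It reports that those blots failed to bear out the sequencing result.

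Lower were bantam, a promoter of growth and inhibitor of cell death in Drosophila, at -1.06 (limma adjusted p = 0.00122), and miR-9a-3p at -0.84 (0.0112). Bantam kept its call under all 16 alternatives. The call of miR-9a-3p was lost with EQ2 included (-0.62, limma adjusted p = 0.0799), without EQ3 (0.0616) and without LQ1 (0.0747), and its adjusted p ran from 0.00431 to 0.0799 over 15 alternatives. This was the scarce arm of its hairpin, at a mean of 25.3 normalized reads in late-instar and 59.3 in early-instar larvae. The abundant arm, miR-9a-5p, had means of 12697 in late-instar and 18524 in early-instar larvae. In mean normalized reads, miR-8 had 23310 ± 3701 in late-instar and 11804 ± 1251 in early-instar larvae, and bantam had 3773 ± 661 in late-instar and 7844 ± 682 in early-instar larvae (SD, n = 3 each). Bantam therefore stood at 0.481 times its early mean, near the same ratio of means for Bte-miR-14-5p (0.547) and Bte-miR-14-3p (0.553). Not called were miR-277, a regulator of branched-chain amino acid breakdown in Drosophila, at -0.22 (limma adjusted p = 0.581), miR-9a-5p at -0.60 (0.0775), miR-33 at -0.19 (0.604), miR-34 at 0.48 (0.13) and miR-125-5p at 0.26 (0.496). Scaling each library to its own total brought miR-34 to 0.63 (limma adjusted p = 0.0218), and under median ratios it was 0.69 (0.0124). In 2 of 16 alternatives miR-9a-5p was called. These were without LQ3 (-0.84, limma adjusted p = 0.0156) and with EQ2 included under own-total scaling (-0.51, 0.0495).

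**Figure D4:**
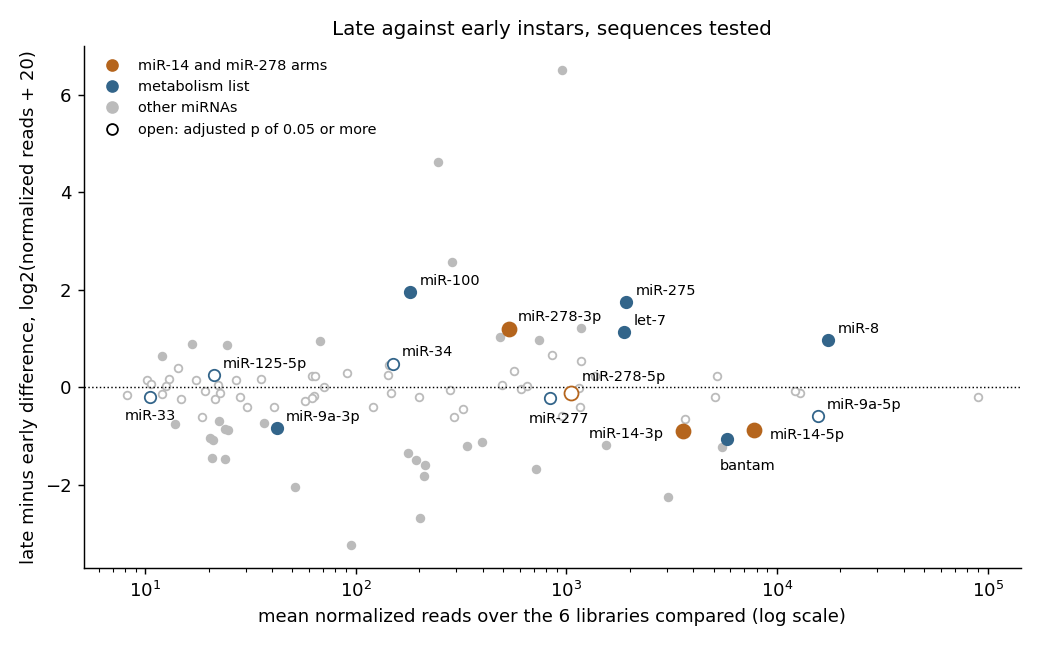
Late minus early log2 difference (vertical axis) against mean normalized reads over the 6 libraries compared (horizontal log axis) for each distinct sequence tested; brown points are the miR-14 and miR-278 arms, blue points the metabolism list and open points had a limma adjusted p of 0.05 or more. The miR-14 arms lie at -0.87 and -0.89 beside bantam, and miR-278-3p lies at 1.21 near let-7.

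Muscle markers were read beside these values, because in pools of whole bodies fewer cells of a type and less RNA per cell cannot be told apart. The neuron marker miR-124 was not analysed here. The muscle miRNA miR-1, the most abundant sequence in each of the 7 libraries, had 76303 to 95129 normalized reads in late-instar and 92735 to 98784 in early-instar libraries, a log2 difference of -0.19 (limma adjusted p = 0.588). The other muscle miRNA, miR-133, had 23 to 37 in late-instar and 14 to 38 in early-instar libraries (0.15, limma adjusted p = 0.686). Neither muscle miRNA was called, and the part of tissue make-up in the differences of miR-14 and miR-278 was not tested. The sum over distinct sequences was 173255 to 233785 in the 6 libraries compared. EQ2 summed to 140733, which was 62.4% of the mean of the other early libraries.

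The sequences whose levels were most alike to each 5p arm were ranked by Pearson's r of log2 levels over the 6 libraries, which all share the instar contrast, the pools and the normalization. For Bte-miR-14-5p they were miR-92b (r = 0.975), miR-31 (r = 0.974) and miR-3049 (r = 0.967). Since miR-3049 reached 10 normalized reads in 3 early-instar but only 1 of the late-instar libraries compared, it passed the filter on low values through the early-instar group, where it is higher. Of these 3 miR-31 had 3654, 2701 and 3497 normalized reads in LQ1, LQ3 and LQ4, against 6863, 8278 and 7738 in EQ1, EQ3 and EQ4. Like Bte-miR-14-5p, both miR-31 and miR-92b were highest in EQ3 and lowest in LQ3. They were picked by r over these same libraries, so this is part of their selection. For Bte-miR-278-5p the likeness was looser, with miR-10-5p at r = 0.896, miR-3049 at 0.745 and Bte-miR-14-5p itself at 0.612. Here miR-10-5p had 5147, 4725 and 4399 normalized reads in LQ1, LQ3 and LQ4, against 5463, 5542 and 5294 in EQ1, EQ3 and EQ4.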

How the data were processed

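Small RNA libraries from pools of whole queen-destined larvae were made by the authors with adapters carrying 4 degenerate bases. Per the methods, reads with unassigned nucleotides and short reads were removed, adapters trimmed, and reads mapped full length with PatMaN to B. terrestris genome v.1.0 and aligned to insect miRNAs of miRBase v.21. The deposited values are a score: normalized read numbers rounded to whole numbers, summed over each miRNA's variants. They are not raw counts, because the table's sums followed the miRNA share of each library (coefficient of variation 5.6% of the quotient) and not its miRNA reads (52.6%), so no count model or counting interval was used. The study gives read totals per library, but the reads behind each value were not recovered here. The table had 7 columns for these larvae, and 7 further columns, which belong to samples of another series, were not used. The coordinates and precursors came from the same table, and which arm is 5p or 3p was read from its position in the precursor.

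Values were tested with limma 3.58.1 in R 4.3.3 on log2(value + 20), with listed miRNAs of at least 10 in at least 3 libraries, LQ1, LQ3 and LQ4 against EQ1, EQ3 and EQ4, and Benjamini-Hochberg adjustment over 100. Single values and ratios (1 added to each arm) had exact two-sided permutation tests in scipy 1.17.1. Neither the main limma fit nor these permutation tests used the pairing of libraries by colony. Precursors were folded with RNAfold 2.7.2. On simulated data with 30 of 100 changed 4-fold, 100% were recovered and 4.95% of calls were false, and with 2-fold changes, nearer in size to those of the 3 called arms, 81.7% were recovered and 4.15% of calls were false. The simulation gave all miRNAs the same spread and independent normal noise, with no library or colony effect. Its rates therefore check the procedure and are not those of these data. Named miRNAs were both arms of miR-14 and miR-278, the metabolism list, sequences sharing a seed or lying within 50 kb, and the 3 sequences most alike to each 5p arm. The members and lists were chosen with earlier results of these data known.

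Same-numbered libraries came from the same colony according to the study's supplementary tables. Their deviations from the group means correlated at 0.0242, 0.0786 and 0.456 for replicates 1, 3 and 4 over 97 sequences, against -0.436 to 0.338 between unlike numbers. Alternatives changed the pseudocount, filter, scaling, block, EQ2 and each replicate.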

Additional observations from a re-analysis of the deposited data

Results flagged for a closer look

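Among 22 values examined over the 4 early-instar libraries, 3 had a library far from the others by Dixon's ratio of gap to range. Their ratios were above the 95% critical value, which a single value passes by chance about 1 time in 20. The 22 values are not independent, so their count cannot be set against that rate. For the log2 arm ratio of miR-278 the ratio was 0.906, with EQ4 at 1.52 and the other early libraries at 1.96 to 2.00. For the sum of distinct sequences it was 0.879, with EQ2 lowest at 140733. For miR-1 it was 0.849, with EQ2 at 58711 normalized reads. Since miR-1 made up 41.7% of the EQ2 sum and 40.1 to 43.8% of the other early sums, these 2 flags are not separate. The miR-278 ratio in EQ4 was still above the 3 late-instar libraries.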

How the results depend on the processing

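The table's count of calls was 43 of 100 (41 to 47 in the alternatives other than leaving out a library or raising the filter), 24 of 47 with a mean of at least 200, and 33 to 39 leaving out one library. The number tested changed too, with 44 of 123 called without a filter, 41 of 97 distinct sequences and 42 of 101 with EQ2. Leaving out one library, 93 to 95 were tested. Including EQ2 gave -0.54 for miR-14-5p and 1 list member lower instead of 2. With the mean of 200, miR-9a-3p and miR-100 were not tested, and 1 list member was lower and 3 instead of 4 higher. Own-total and median-ratio scaling each gave 5 higher, miR-34 being the added one. EQ2 with own-total scaling, added after the data were seen, gave -0.55 for miR-14-5p (limma adjusted p = 0.074). There 5 list members were higher and 3 lower. A pseudocount of 1 gave -0.90 for miR-14-3p (limma adjusted p = 0.057). Scaling turned miR-278-5p to 0.03 (own total) and 0.11 (median ratios), and median ratios turned miR-277 to 0.02, miR-1 to 0.05 and miR-10-5p to 0.05. These scalings moved the median of the listed miRNAs tested from -0.15 to -0.04 and 0.03. Leaving out one library gave -0.98 to -0.76 for miR-14-5p, -1.06 to -0.61 for miR-14-3p, -0.21 to -0.05 for miR-278-5p and 1.04 to 1.35 for miR-278-3p. It gave 4 list members higher in each case and 1 to 3 lower, -0.37 to 0.27 for the miR-14 arm ratio (-0.10 without EQ4), -1.62 to -1.21 for that of miR-278 and -0.86 to -0.62 for the ratio of the 5p arms. miR-133 ran from -0.04 (without EQ4) to 0.35. By limma, added after the data were seen, the miR-278 arm ratio difference was -1.38 over 11 and over 8 hairpins and -1.43 with EQ2. With the colony as a replicate block 43 listed miRNAs were called, and no call changed for the 4 arms, at limma adjusted p of 0.00563 and 0.00431 for miR-14-5p and miR-14-3p, 0.615 for miR-278-5p and 0.00103 for miR-278-3p. The cause of these changes was not tested. With 3 libraries a group, permutation tests cannot fall below 0.1, and with 1 library left out they cannot fall below 0.2. Sign-flip tests of 3 colony differences cannot fall below 0.25.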

Other observations

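Summed over both arms, miR-14 had 8053, 8055 and 7979 normalized reads in LQ1, LQ3 and LQ4, against 12745, 16123 and 14992 in EQ1, EQ3 and EQ4, and 6754 in EQ2. On the deposited scale the sums of the 3 late libraries had a coefficient of variation of 0.539%, but as shares of all distinct miRNAs they were 4.65%, 3.45% and 3.95% in LQ1, LQ3 and LQ4 (coefficient of variation 15.0%), so the near-equal sums held on the deposited scale only. The early-instar shares were 5.65%, 6.98% and 6.81% in EQ1, EQ3 and EQ4, and 4.8% in EQ2. Summed over both arms, miR-278 had 1723, 1943 and 1613 in LQ1, LQ3 and LQ4, against 1442, 1360 and 1421 in EQ1, EQ3 and EQ4, and 1039 in EQ2. The ratio of means without EQ2 was 1.25 (exact two-sided permutation p = 0.1, the smallest possible). By arm this ratio was 2.41 for miR-278-3p and 0.918 for miR-278-5p. As shares the miR-278 sums were 0.994%, 0.831% and 0.799% in LQ1, LQ3 and LQ4. The early-instar shares of miR-278 were 0.64%, 0.589% and 0.646% in EQ1, EQ3 and EQ4, and 0.738% in EQ2. The miR-14 ratio of means was 0.549 (exact two-sided permutation p = 0.1).

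The likeness ranking was extended to the 3p arms after the values were seen. Over the same 6 libraries, miR-14-3p was most like bantam (Pearson r = 0.954), miR-9a-3p (0.939) and MC1128 (0.934), and miR-278-3p was most like MC54 (0.990), MCD1343 (0.978) and miR-317 (0.973), a miRNA encoded beside miR-277 and miR-34 in Drosophila. Of these, miR-317 had 616, 792 and 564 normalized reads in LQ1, LQ3 and LQ4, against 311, 297 and 314 in EQ1, EQ3 and EQ4. It was 1.04 higher on the log2 scale in late-instar larvae (limma adjusted p = 0.00138), with no overlap between the groups. MC54, MCD1343 and MC1128 passed the filter on low values only with the libraries of the instar in which they were higher. MCD1343 reached 10 in 3 late-instar and 0 early-instar libraries compared, so it could be tested only because it was high in late-instar larvae, and its likeness to miR-278-3p is a description set in part by that filter.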
